A study of Mus musculus with 2 samples.

Results

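Natural killer cells and the other innate lymphoid cells are lymphocytes without a rearranged antigen receptor. Among the cell barcodes of a mouse bone marrow library, 83 of 6439 (1.29%, 95% exact binomial interval 1.03 to 1.60) held the transcripts of natural killer (NK) cells that define the group described here. A barcode was a member where it had under 10% mitochondrial UMIs (unique molecular identifiers, one per captured transcript), at least 3 UMIs over the 6 genes Klre1, Klrk1, Ncr1, Xcl1, Txk and Gzma, and under 15% of its UMIs from S100a8 and S100a9. The library came from the pooled marrow of 3 naive C57BL/6 mice, sorted as CD45+ CD3- Ly6G- cells, so the sort itself was made against T cells, which carry CD3, and against neutrophils, which carry Ly6G. The other library of the series held CD45+ cells with Car1-GFP from 3 pooled naive reporter mice on the C57BL/6 background. Of its 2522 barcodes, 0 met the rule, and 11 UMIs of the 6 genes lay in 10 of its barcodes. The whole series holds 8980 barcodes. Age and sex of the mice are not given in the sources used here.

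NK cells kill infected or transformed cells by releasing granules that hold perforin and granzymes, and they signal to other leukocytes through chemokines and interferon gamma. Their activity is set by a balance of activating and inhibitory receptors, many of which are C-type lectins encoded side by side in one gene cluster. They develop in the bone marrow from lymphoid progenitors under interleukin 15, which signals through the chains encoded by Il2rb and Il2rg, and they depend on the transcription factors Id2, T-bet (Tbx21) and Eomes.

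The members held 97414 UMIs in all, from 597 to 5730 per barcode with a median of 930 UMIs and 510 genes. The 6356 other marrow barcodes under 10% mitochondrial UMIs had a median of 1053 UMIs and 548 genes, so depth was similar. With 1 library from 1 pool there is no spread between mice, no test was made, and each interval below covers counting error only. Levels are UMI sums over a set of barcodes, scaled by the UMI total of that set and given as CPM, and a log2 ratio sets the members over the other marrow barcodes. Since the members were chosen by their UMIs, these ratios describe them. Scrublet called 3 of the 83 members doublets (2.66% over the library), and 14 barcode sequences occurred in both libraries, 0 of them members.

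The genes of the rule had the following levels, which are given as a description because they chose the members. Gzma, which encodes the granule protease granzyme A, stood at 2084 CPM in the members and 13.6 in the other marrow barcodes. Klre1, a lectin-like receptor, stood at 821 CPM, and Klrk1, which encodes the activating receptor NKG2D, stood at 678 CPM. Ncr1, which encodes the activating receptor NKp46, and the chemokine gene Xcl1 each stood at 452 CPM, and Txk, a Tec family kinase, at 318 CPM. The rule's sum ran from 3 to 12 UMIs per member with a median of 5. Of the members, 6 had UMIs of 1 of the 6 genes, 38 of 2, 20 of 3, 13 of 4, 6 of 5 and 0 of all 6. Gzma was found in 57 members, Klre1 in 49, Klrk1 in 43, Ncr1 in 30, Txk in 24 and Xcl1 in 21. Between them the members held 63.6% of the Gzma UMIs of the library and 61.1% of the Ncr1 UMIs, against 1.13% of all UMIs.

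The promoters of the NK genes that chose the members were searched for short motifs of factor families described further on. The stretches with the most RUNX and T-box matches, among windows that do not reach into the gene's own model, are shown here. Each is the 250 bases before the RefSeq start (GRCm38.p6), 5′ to 3′ on the gene's strand. Capitals mark the RUNX motif ACCACA (or TGTGGT on the other strand) and the T-box motif AGGTGT (or ACACCT).
Ncr1, chr7:4337465-4337714, plus strand: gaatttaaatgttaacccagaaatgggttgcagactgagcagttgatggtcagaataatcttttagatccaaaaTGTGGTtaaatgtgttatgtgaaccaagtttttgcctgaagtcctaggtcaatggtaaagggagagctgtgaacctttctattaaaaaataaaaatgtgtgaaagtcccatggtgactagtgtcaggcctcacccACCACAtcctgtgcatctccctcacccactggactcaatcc
Gzma, chr13:113100982-113101231, minus strand: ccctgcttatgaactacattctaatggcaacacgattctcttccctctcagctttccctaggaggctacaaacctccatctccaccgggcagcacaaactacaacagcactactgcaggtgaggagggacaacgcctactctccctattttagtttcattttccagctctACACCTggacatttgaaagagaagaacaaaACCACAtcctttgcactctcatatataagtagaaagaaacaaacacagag
Klrk1, chr6:129623865-129624114, minus strand: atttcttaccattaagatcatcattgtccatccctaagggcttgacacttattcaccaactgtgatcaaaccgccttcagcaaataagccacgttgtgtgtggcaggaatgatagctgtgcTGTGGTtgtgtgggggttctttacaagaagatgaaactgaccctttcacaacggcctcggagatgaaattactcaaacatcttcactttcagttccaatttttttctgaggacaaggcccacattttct
Ncr1 has 2 RUNX matches and no T-box match. Gzma has 1 of each, and Klrk1 has 1 RUNX match. Over the 6 rule genes, 5 windows (all but that of Txk) held a RUNX match, beside 14.1% of the 32851 windows of the table, and 1 held a T-box match, beside 11.8%. A further motif searched, the ETS core GGAAG (or CTTCC), occurred in 3 of the 6 and in 64.1% of all windows, and does not overlap the others. A match is a run of letters and shows no binding.

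Levels of 3 genes that the rule did not use are given here by the rule's sum. Ccl5, which encodes the chemokine RANTES, stood at 67.3 CPM (60.7 to 74.5) in the 3995 barcodes under the S100 limit with none of the rule's UMIs, at 492 in the 171 with 1 and at 2965 (2444 to 3565) in the 26 with 2, which lie just outside the rule. In the 18 barcodes with 3, just inside it, Ccl5 stood at 4955 CPM (4018 to 6045), and then at 4339 with 4, 5405 with 5 to 7 and 4556 with 8 or more. The Ccl5 level thus rose up to the limit of the rule and did not go on rising within the members. AW112010, annotated as a long intergenic noncoding RNA on chromosome 19 (mm10, 11047612 to 11055808, minus strand), stood at 76.9 CPM at 0, 323 at 1 and 1548 at 2. Within the members it stood at 3320 CPM (2563 to 4232) at 3, 1920 (1425 to 2531) at 4, 2720 at 5 to 7 and 3661 at 8 or more, with no even course. Klrd1, which encodes CD94, the partner chain of the NKG2 receptors, went from 40.2 CPM at 0 to 367 at 2 and 937 at 8 or more. The 26 barcodes with 2 UMIs thus lay between the members and the rest for these 3 genes. Another 11 barcodes reached 3 UMIs of the rule genes and were left out by the S100 limit, and 0 were left out by the mitochondrial limit.

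**Figure D1:**
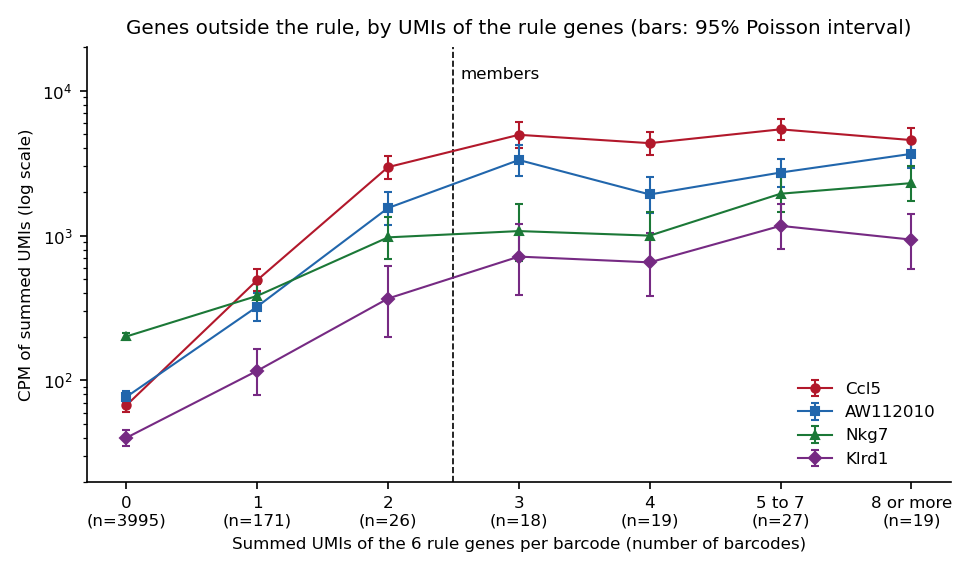
Levels of 4 genes outside the rule (CPM of summed UMIs, log axis, 95% Poisson intervals as bars) by the number of UMIs of the 6 rule genes per barcode, with the number of barcodes under each tick. Ccl5 lies at 67.3 CPM where the rule genes have no UMI, at 2965 CPM at 2 UMIs and at 4955 CPM at 3 UMIs, the first bin of members to the right of the dashed line.

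Across the whole table, 10485 genes had at least 20 UMIs over members and others together and are called measured. A gene can thus be measured through its member UMIs. The share of higher genes among the measured genes of a list therefore follows in part from this minimum. Of the measured genes, 1640 (15.6%) were 2-fold higher in the members and 820 (7.82%) were 2-fold lower, but 4293 had 1 to 3 member UMIs and 2537 had none. With the further demand that the 95% interval of the ratio leave out 0, 478 genes (4.56%) were higher and 197 (1.88%) lower, and "higher" and "lower" below mean this stricter call unless the values are given. Among measured genes with a UMI on both sides the median log2 ratio was 0.25; TMM factors move every ratio by -0.26 and DESeq2 size factors by -0.25. Higher genes were 66.7% of the 2-fold calls as computed. They were 48.1% with TMM factors, 49.5% with DESeq2 size factors and 54.9% against the other barcodes under 15% S100a8 and S100a9. Without S100a8 and S100a9 in the totals they were 56.7%, with each barcode weighted equally 57.0%, and with a minimum of 50 UMIs 58.5%. With no minimum they were 71.4%, and by the stricter call 70.8%. The split thus moved with the scaling, the minimum and the barcodes compared. The receptor counts given below did not change with the first of these: 6 lectin and 5 Ly49 receptor genes were also 2-fold higher with TMM and with DESeq2 size factors.

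Among genes with at least 50 member UMIs, those that followed the rule genes in the size of the ratio were Ccl5, AW112010, Ms4a4b, Klrd1, Nkg7, Ptprcap, Id2 and Ptprc. Ccl5 (chromosome 11, 83525778 to 83530518, minus strand) was the most abundant, with 470 UMIs in 69 members, a median of 5 per member and a highest count of 18. Its level was 4825 CPM (4398 to 5281) against 93.2 in the others, a log2 ratio of 5.69 (5.53 to 5.86). AW112010 was the most widespread of them, found in 77 members, at 2854 CPM against 79.9, a log2 ratio of 5.16 (4.95 to 5.36). Ms4a4b, a membrane-spanning 4A family gene of lymphocytes, stood at 565 CPM against 22.6 (log2 4.64, 4.19 to 5.08). Ptprc, which encodes CD45, the antigen of the sort, stood at 1139 CPM against 295 (log2 1.95, 1.66 to 2.23), and Ptprcap, which encodes a protein bound to CD45, at 513 against 81.8. The members held 37.1% of the library's Ccl5 UMIs (34.4 to 39.8), 28.9% of AW112010, 21.4% of Klrd1 and 9.17% of Nkg7. The remaining Ccl5 UMIs lay in 6.29% of the other barcodes.

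**Figure D2:**
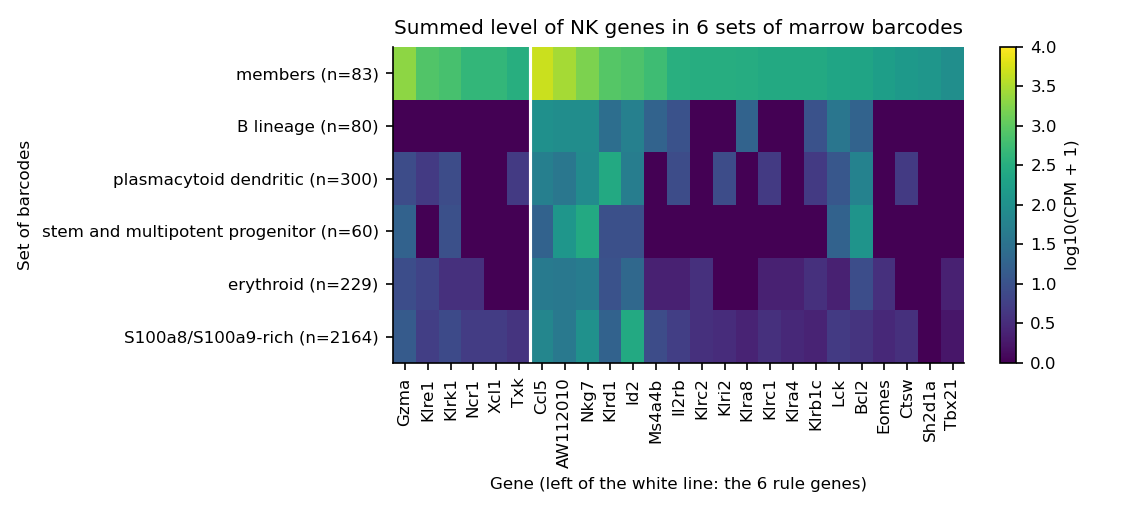
Level of 25 NK genes, as log10(CPM + 1) of summed UMIs, in the members and in 5 other sets of barcodes of the marrow library, with the number of barcodes in each. Ccl5 is at 4825 CPM in the members and between 16.9 and 99.2 CPM in the other 5 sets, while Klrd1 is also present in the plasmacytoid dendritic set (270 CPM) and Id2 in the S100a8/S100a9-rich set (266 CPM).

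The comparison sets were barcodes outside the rule with 3 or more UMIs of a class: 80 of B lineage, 300 plasmacytoid dendritic, 229 erythroid, 60 stem and multipotent progenitor and 2164 with 15% or more S100a8 and S100a9. Thinned to 600 UMIs each, which left out 1 member of 597 UMIs, 60 of 82 members held Ccl5 (73.2%, 62.2 to 82.4). The share was 3.87% in the other marrow barcodes, 5.13% of the B lineage set and 2.35% of the plasmacytoid set. Unthinned shares were 83.1% and 6.29% in members and others. AW112010 was found in 78.0% of thinned members and 4.13% of the others, and Il2rb in 20.7% and 0.397%. The share of the members exceeded the interval of each other set for these 3 genes. The median number of genes at 600 UMIs was 385 in the members and 386 in the others.

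The lectin receptors and the Ly49 family form the NK gene complex. Apart from Klrk1 and Klre1, 13 genes of the NKR-P1 and NKG2 group were in the gene table, 8 were measured and 6 were higher, with 0 lower, and the median log2 ratio of the measured genes was 5.39. Klrd1 led them in UMIs, with 86 in 50 members and 883 CPM against 37.0 (log2 4.58, 4.22 to 4.93). Its partners Klrc1 and Klrc2, which encode the inhibitory NKG2A and the activating NKG2C, had 26 and 30 UMIs and log2 ratios of 6.35 (5.52 to 7.17) and 6.55 (5.76 to 7.35). Of the 21 members with Klrc1, 16 also held Klrd1, and of the 24 with Klrc2, 19 did, while Klrd1 was found in 60.2% of all members. Klri2, the partner of Klre1, stood at 308 CPM against 3.04 (log2 6.66), and 15 of its 21 members held Klre1. Klrb1c, which encodes the NK1.1 antigen by which NK cells of C57BL/6 mice are stained, stood at 267 CPM against 3.63 (log2 6.20, 5.39 to 7.0) in 20 members. Klrb1f had 12 UMIs (log2 2.75). Clec2d and Clec2i, which encode lectin-like ligands of the NKR-P1 receptors, had log2 ratios of 0.67 and -0.12 with intervals on both sides of 0. Klrg1, a receptor of mature NK cells, had 1 UMI.

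The Ly49 receptors, which bind MHC class I molecules, had 11 genes in the table, 7 of them measured, of which 5 were higher and 0 lower. Klra8, the activating Ly49H receptor that recognises a cytomegalovirus protein, had the highest ratio of the called genes, 298 CPM against 1.52 (log2 7.61, 6.62 to 8.68), with 29 UMIs in 19 members. Klra4 (Ly49D) and Klra7 (Ly49G) had 26 UMIs each and log2 ratios of 7.16 and 6.11. Klra3 (Ly49C) had 14 UMIs in 9 members and a log2 ratio of 7.26, and Klra1 (Ly49A) had 8 UMIs and 5.13. Klra9 (Ly49I) had 7 member UMIs, Klra5 2, and Klra10 and Klra17 none. The family was detected patchily: 32 members had UMIs of 0 Ly49 genes, 29 of 1, 16 of 2, 4 of 3 and 2 of 4. At a median of 930 UMIs a gene that was not seen may still have been expressed. Reads of these near-identical paralogs can be split or lost in counting, so levels of single Ly49 genes are uncertain. Counting the rule's 2 receptors, 13 genes of both families with higher levels lie on chromosome 6 between 128778485 and 130386874 (mm10), a stretch of 1.61 Mb, and they had 459 UMIs in the members.

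Signalling proteins below these receptors differed by kind. Tyrobp and Fcer1g, the adaptors DAP12 and Fc receptor gamma chain that myeloid cells share, were abundant in members and others alike. Tyrobp stood at 2053 CPM against 1798 (log2 0.19, -0.02 to 0.39), Fcer1g at 1468 against 1234 (log2 0.25, 0.00 to 0.49), and both ratios lie within the shift between scalings. Hcst, which encodes DAP10, the adaptor of NKG2D, was higher (349 CPM against 164, log2 1.09, 0.55 to 1.58), but its ratio was below 2-fold with TMM factors (0.82), DESeq2 size factors (0.84) and totals without S100a8 and S100a9 (0.94). The lymphocyte kinase gene Lck stood at 226 CPM against 7.95 (log2 4.83, 4.06 to 5.54), and Sh2d1a, which encodes the SLAM adaptor SAP, at 123 against 1.64 (log2 6.23, 4.99 to 7.45). Cd247, the zeta chain, had 6 member UMIs and too few in all to be measured, and Zap70 had 2. In all, 14 adaptors and kinases outside the rule were measured and 7 were higher (6 without Hcst), with 0 lower and a median of 1.09. Of 9 measured immunoglobulin-like and other receptors, 4 were higher and 0 lower. These were Cd2, an adhesion receptor (log2 5.57), Cd244, which encodes 2B4 (3.54), Cd7 (2.95, 28 UMIs in 23 members) and Slamf7 (2.46, 3 UMIs). Fcgr3, which encodes the Fc receptor CD16, had 5 UMIs and a ratio of -0.76 (-2.39 to 0.47).

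**Figure D3:**
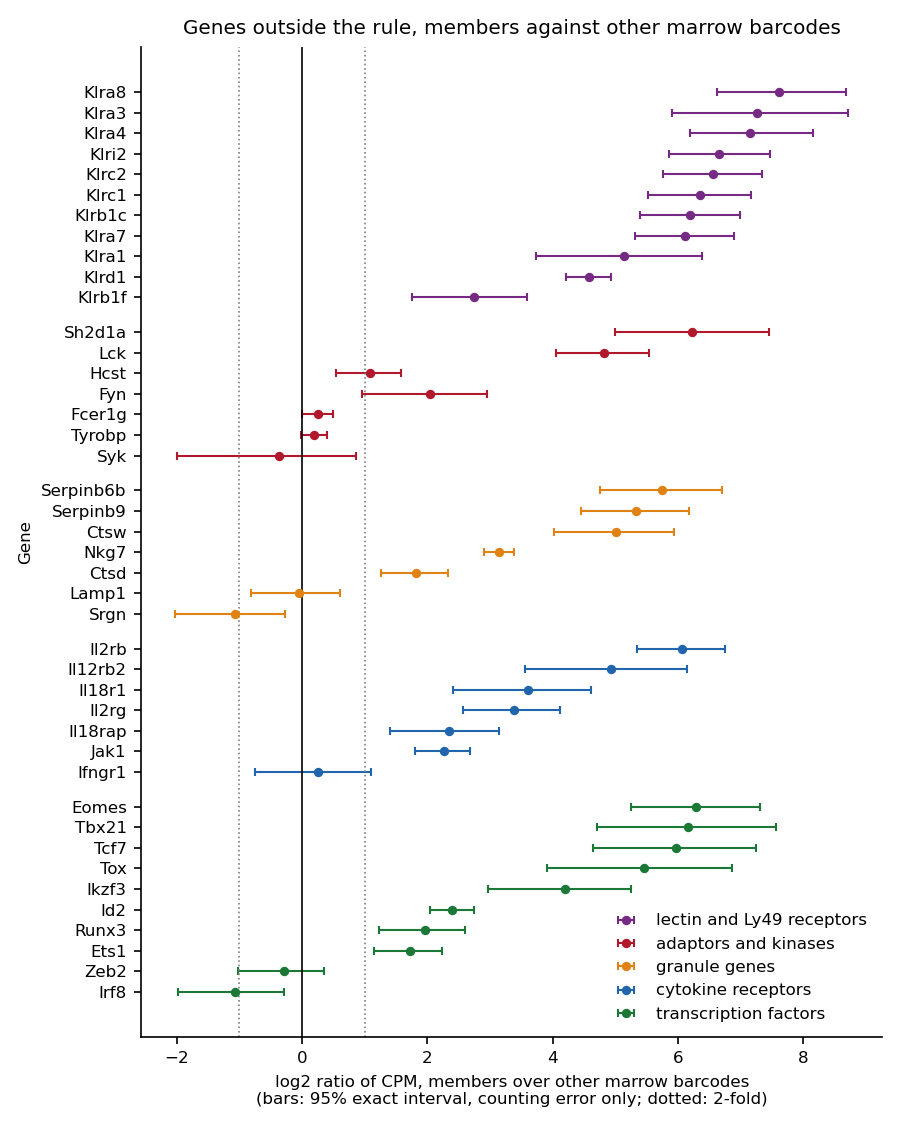
Log2 ratio of CPM in members over other marrow barcodes, with 95% exact intervals for counting error, for genes outside the rule in 5 groups; dotted lines mark 2-fold. The receptors of the NK complex shown were picked from those called higher and lie between 2.75 and 7.61. Measured genes of their lists without that call, such as Clec2d and Clec2i, are left out. Tyrobp and Fcer1g lie near 0, and Srgn and Irf8 lie below it at -1.07 and -1.06.

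Of the granule genes outside the rule, 13 were measured, 6 were higher and 1 was lower, with a median of 0.97. Nkg7, a membrane protein of cytotoxic granules, stood at 1601 CPM against 181 (log2 3.15, 2.90 to 3.39) and was found in 64 members, with a median of 2 UMIs and at most 6. Ctsw, which encodes the lymphocyte protease cathepsin W, had a log2 ratio of 5.01 (4.02 to 5.93). Serpinb9 and Serpinb6b, inhibitors of granule proteases, stood at 185 CPM against 4.56 (log2 5.34) and 164 against 3.04 (log2 5.75). Gzmb, which encodes granzyme B, had 4 UMIs, the perforin gene Prf1 had 2, Gzmk 2 and Gzmm 0, where 3 counts would be 30.8 CPM. Srgn, the proteoglycan of granules in many leukocytes, was lower (123 CPM against 259, log2 -1.07, -2.03 to -0.26), but below 2-fold with every barcode weighted equally (-0.70) and without Scrublet's doublets (-0.99).

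Of the 5 measured chemokine and cytokine genes outside the rule, 4 were higher and 0 lower, with a median of 3.98. Ccl4 and Ccl3, which encode MIP-1 beta and alpha, were found in few members. Ccl4 had 19 UMIs in 8 members, at most 6 in 1 of them (log2 4.92, 4.09 to 5.70), and Ccl3 had 9 in 5 (log2 3.98). Of the 5 members with Ccl3, 4 also held Ccl4, which 9.64% of all members did. The 8 with Ccl4 all held Ccl5, which 83.1% of all members did. Ltb, which encodes lymphotoxin beta, stood at 195 CPM against 28.5 (log2 2.77, 2.02 to 3.45). Ifng, which encodes interferon gamma, had 5 UMIs in 5 members and 51.3 CPM (16.7 to 120), against 0.351 in the others. Xcl1 was the most unevenly spread of the rule genes, with 50% of its 44 UMIs in 5 members. Of its 21 members 10 held Gzma, which 68.7% of all members did; UMIs of both count towards the rule, so this share is not independent of it.

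Among cytokine receptors and signal transducers, 21 were measured, 7 were higher and 0 lower, with a median of 1.20. Il2rb, the shared chain of the interleukin 2 and 15 receptors, stood at 328 CPM (225 to 464) against 4.91, a log2 ratio of 6.06 (5.35 to 6.76), and Il2rg at 174 against 16.6 (log2 3.39). The interleukin 12 receptor gene Il12rb2 had a ratio of 4.93, and the interleukin 18 receptor genes Il18r1 and Il18rap had 3.6 and 2.34. Jak1, the kinase bound to Il2rb, stood at 482 CPM against 100.5 (log2 2.26, 1.81 to 2.69) and was found in 31 members. Il7r, the interleukin 7 receptor of lymphoid progenitors and many innate lymphoid cells, had 3 UMIs (log2 0.81, -1.48 to 2.39), Kit 1 and Flt3 0. Bcl2, which encodes a survival factor, was higher (216 CPM against 28.9, log2 2.90, 2.18 to 3.54), and it was the one gene of 12 measured in its family that was. Mcl1, another survival factor on which NK cells depend, had 6 UMIs and a ratio of -0.90 (-2.35 to 0.23).

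Of 22 measured transcription factors of the list, 11 were higher and 1 lower, with a median of 1.76. Id2, an inhibitor of E proteins, was the most abundant, at 749 CPM against 142 (log2 2.40, 2.04 to 2.74) in 48 members; against the other barcodes under 15% S100a8 and S100a9 its ratio was 3.11. Eomes had 17 UMIs in 12 members (log2 6.29, 5.26 to 7.32) and Tbx21 9 UMIs in 8 (log2 6.17, 4.72 to 7.57), and 2 members held both. Tcf7 (log2 5.97), Tox (5.46), Ikzf3 (4.2) and Lef1 (4.0) were also higher, from 4 to 10 UMIs each. Runx3 stood at 205 CPM against 52.9 (log2 1.96, 1.23 to 2.60) and Ets1 at 318 against 96.6 (log2 1.72, 1.15 to 2.24), the families whose motifs were searched above. Runx1 stood at 103 against 98.0 (log2 0.07, -1.0 to 0.95). Gata3 had 5 UMIs in 4 members. Tcf4, the E protein of plasmacytoid dendritic cells, was among the lowest genes (20.5 CPM against 163, log2 -2.99), and Irf8 was lower as well (log2 -1.06, -1.97 to -0.29, and -0.92 without the members over 3000 UMIs).

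Of 19 measured homing and adhesion genes, 5 were higher and 1 lower, with a median of 0.97. Among the higher were the integrin genes Itgb1 (log2 2.1), Itga4 (1.57) and Itgal (1.04) and Selplg, the ligand of P-selectin (1.54). Itgal was below 2-fold with TMM factors (0.78), DESeq2 size factors (0.79) and totals without S100a8 and S100a9 (0.90). Cxcr4, the receptor that holds leukocytes in the marrow, stood at 144 CPM against 216, with an interval on both sides of 0. S1pr5, the receptor by which mature NK cells leave the marrow, had 1 UMI. The MHC class I genes H2-K1 (1119 CPM against 386, log2 1.54, 1.25 to 1.81), H2-Q7 (2.61) and H2-Q4 (1.70) were higher, 3 of 13 measured. B2m stood at 2104 CPM against 1488 (log2 0.50) and H2-D1 at 1047 against 764 (log2 0.45).

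Other innate lymphoid cells share Id2 with NK cells but have their own defining genes. For group 2 cells, Il1rl1, Il17rb, Il13, Il5, Areg and Arg1 had 0 member UMIs, while Icos and Gata3 each had 5 in 4 members. The group 2 list summed to 15 UMIs in 12 members (154 CPM against 46.4), and of its 4 measured genes 0 were higher, with a median log2 ratio of 1.37. Icos and Gata3, which led the list in member UMIs, had too few UMIs in all to be measured, so this count leaves them out. For group 3 cells, Il23r, Il22, Il17a and Ccr6 had 0, and the list summed to 5 UMIs in 5 members (51.3 CPM against 124). For group 1 cells other than NK cells, Itga1, Cd200r1 and Zfp683 had 0, Cxcr6 had 1, and Tnfsf10 had 3. The group 1 list summed to 29 UMIs in 19 members (298 CPM against 142), and 2 of 7 measured genes were higher, Tnfsf10 (log2 3.18) and Ltb. Of the precursor genes, Zbtb16 and Pdcd1 had 0. The precursor list summed to 28 UMIs in 24 members (287 CPM against 233), and of 6 measured genes Tcf7 and Il18r1 were higher and Bcl11a was lower (log2 -1.88). Each 0 allows up to 30.8 CPM, the level of 3 UMIs. The members are therefore called NK-like, although Icos and Gata3 of the group 2 list were detected in a few of them. Their label also names innate lymphoid cells, and the genes of those cells given above at 0 were not detected at this depth.

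Genes of T cells had few UMIs in the members, but their summed level was above that of the others. Of the 14 listed, 9 were in the gene table and 6 measured, of which 2 were higher. Cd3d had 6 UMIs in 6 members (61.6 CPM against 8.66, log2 2.83, 1.34 to 4.02) and Cd3g 4 in 4 (log2 3.6), whereas Cd3e, Cd4, Cd8a and Cd8b1 had 0. Thy1, an antigen of T cells and of some NK cells, had 15 UMIs (log2 5.23, 4.25 to 6.14). The summed T cell list had 13 UMIs in 12 members (133.5 CPM against 37.1), at most 2 in any member. Listed genes outside the gene table could not be counted.

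Genes of the remaining lineages had few UMIs per member except those of monocytes and neutrophils. The median member had 0 UMIs of the B lineage, plasmacytoid, erythroid, stem cell, basophil and megakaryocyte genes. At 3 or more UMIs, 1 member held B lineage genes, 1 plasmacytoid genes, 1 basophil and mast genes and 2 erythroid genes. In sum, levels were not far below the others for erythroid genes (205 CPM against 253.5) and B lineage genes (82.1 against 117). Of 6 measured genes of conventional dendritic cells, Itgax, which encodes CD11c and which mouse NK cells also express, was higher (61.6 CPM against 5.97, log2 3.37, 1.86 to 4.59) and the class II gene H2-Ab1 was lower (log2 -1.89). Monocyte genes, led by Lyz2, had a median of 1 UMI and reached 29, with 22 members at 3 or more. The monocyte list summed to 236 UMIs in 59 members (2423 CPM against 7912). The 10 neutrophil genes had a median of 19 UMIs and reached 307, and S100a8 was found in 83 of 83 members. The level of S100a8 was nearly even over the sets that are not rich in it. It was 11713 CPM in members, 11776 in B lineage, 11789 in plasmacytoid, 11761 in stem cell and 9015 in erythroid barcodes. The ratio of S100a8 to S100a9 UMIs was 1.57 in members and 1.46 to 1.63 in the other sets. The part of free RNA in these values was not tested. Measured neutrophil genes were 9 lower of 10, but the rule itself used S100a8 and S100a9 and this is no finding.

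Among the 15 called genes with the lowest ratios were Cebpe, a factor of granulocyte maturation (10.3 CPM against 197, log2 -4.26, -9.57 to -1.78), the basophil protease gene Mcpt8 (log2 -3.63), Fcnb (-3.51), Trem3 (-3.51), Ly86 (-3.36) and the class II gene H2-Aa (-2.96). Their member counts were low, from 1 UMI for Cebpe to 16 for Elane, the neutrophil elastase gene (164 CPM against 1142, log2 -2.80). They also held Hyou1 (log2 -3.44), Fes (-3.17), Pgd (-3.02) and Dstn (-2.79). The rule's limit on S100a8 and S100a9 left out barcodes rich in neutrophil transcripts, so low granulocyte genes follow in part from the rule and are no finding.

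Car2, which encodes carbonic anhydrase 2 and belongs to the enzyme family behind the study's reporter, was found in 16 of the 83 members. The gene lies on chromosome 3 (mm10, 14886273 to 14900770, plus strand). It had 31 member UMIs: 11 members had 1, 4 had 2 and 1 had 12, while 67 had 0. The level was 318 CPM (216 to 452) in members and 185 (176 to 195) in the other marrow barcodes, a log2 ratio of 0.78 (0.22 to 1.29), below 2-fold, and of 1.07 with every barcode weighted equally. Among the sets, the erythroid barcodes had 1570 CPM (1482 to 1661), stem and multipotent progenitors 152 (90.3 to 241), B lineage 45.1 (14.6 to 105), plasmacytoid 22.2 (8.15 to 48.3) and the S100a8/S100a9-rich barcodes 16.7 (12.1 to 22.4). The interval of the members overlaps that of the stem and progenitor set and lies above those of the B lineage, plasmacytoid and S100-rich sets. The value rested on few barcodes. The member with 12 Car2 UMIs had 5730 UMIs in all, 5 UMIs of the 8 erythroid class genes and 11 of globins, and another with 2 Car2 UMIs had 12 erythroid and 138 globin UMIs. Scrublet called neither a doublet. Without these 2 members, Car2 had 17 UMIs in 14 of 81 and 192 CPM (112 to 308). It was 207 CPM (125 to 324) without the member with the most Car2 and 184 without the 4 members over 3000 UMIs (log2 ratio -0.01). These values lay within counting error of the 185 CPM of the other marrow barcodes. That level includes the erythroid set, which held 1189 of the 1585 Car2 UMIs of the other marrow barcodes. The 192 CPM thus leaves out barcodes with 3 or more erythroid UMIs on the members' side only. The erythroid set held 757487 of the 8548872 UMIs of the other marrow barcodes. Without that set the level of the others lies below 185 CPM, but its value was not computed. The closeness to 185 CPM thus does not place the members against non-erythroid marrow.

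Counted per barcode, 11 of 82 members thinned to 600 UMIs held Car2 (13.4%, 6.89 to 22.7), against 4.27% of the other barcodes, 55.9% of the erythroid set, 11.7% of stem and progenitor, 2.56% of B lineage, 1.68% of plasmacytoid and 1.03% of S100-rich barcodes. The last 2 sets had the lowest shares, at median depths of 776.5 and 1076.5 UMIs before thinning, and the members' interval at 600 UMIs lies above both. Neither set measures free RNA. In the S100-rich set S100a8 and S100a9 made up 31.8% of UMIs, against 1.92% in members. There 600 UMIs gave a median of 258 genes, against 385 in members, so fewer UMIs were left for other genes such as Car2. The members' interval overlaps those of the B lineage set (0.312 to 8.96) and of the stem and progenitor set (4.82 to 22.6). At 1000 UMIs, 7 of 35 members held Car2 (20%, 8.44 to 36.9), an interval that overlaps that of the 54 plasmacytoid barcodes left (1.85%, 0.047 to 9.89) and lies above the 1.93% of the S100-rich ones. It also overlaps those of the stem and progenitor set (17.3%, 8.23 to 30.3) and the B lineage set (9.09%, 2.53 to 21.7) at 1000 UMIs. Unthinned shares were 19.3% in members, 7.35% in the other marrow barcodes and 1.99% in S100-rich barcodes. In the stem and progenitor set, with a deeper median of 1700.5 UMIs, the unthinned share was 20%. The 16 members with Car2 were deeper, with a median of 1447.5 UMIs against 853 in those without, and 4 of them held globin UMIs (25%), against 12 of 67 (17.9%). They had a median of 6 rule UMIs and 3.5 Ccl5 UMIs, against 5 and 5. Car1, the gene of the reporter, had 8 UMIs in 4 members (82.1 CPM, 35.5 to 162, against 102, log2 -0.32), of which 7 lay in 3 members over 3000 UMIs. Without the members over 3000 UMIs its log2 ratio was -3.06, on 1 UMI. Of the other 14 carbonic anhydrase genes, Car5b had 1 member UMI and the remaining 13 had none. The part of erythroid or free RNA in the Car2 value was not tested.

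NK cells mature from a CD27-rich to a CD11b-rich state. Of 11 measured genes of the early list, 6 were higher and 0 lower, with a median of 2.60, and of 8 of the late list 1 was higher and 3 lower, with a median of -0.90. Early genes that were higher included Ctla2a (308 CPM against 22, log2 3.81, 3.20 to 4.37), Cd7, Ltb, Tcf7, Thy1 and Cd27 (257 CPM against 103, log2 1.32, 0.68 to 1.89). The late genes Itgam, which encodes CD11b (log2 -1.32, -2.95 to -0.09), Ly6c2 (-1.44) and Irf8 were lower, genes that myeloid cells also express, while Klf2 was higher (1.16). Klf2 was below 2-fold with TMM (0.90) and DESeq2 size factors (0.92), and Itgam with every barcode weighted equally (-0.99) and against other barcodes under 15% S100a8 and S100a9 (-0.45). Counted within each member, the early list had 151 UMIs and the late list 109. Late UMIs exceeded early ones in 21 members, equalled them in 22 and were fewer in 40. These are ranges of counts and not cell types, since 22 members lay at a difference of 0, 10 at 1 more late UMI and 12 at 1 more early UMI. The late list owed 44 UMIs to Ly6c2. Without Ly6c2 and Ctla2a the numbers were 18, 24 and 41.

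The abundant genes Ccl5 and Nkg7 had overlapping intervals in the 3 ranges. Ccl5 stood at 5148 CPM (4322 to 6086) in the late range, 4492 (3712 to 5388) in the equal range and 4824 (4204 to 5511) in the early range, and Nkg7 at 1390 (979 to 1916), 1820 (1337 to 2421) and 1601 (1252 to 2016). Il2rb stood at 150 (41.0 to 385), 232 and 489 (307 to 740), and Klrc1 at 113 (23.2 to 330), 232 and 378 (220 to 605), each lowest in the late range but with intervals that overlap. Xcl1 stood at 752 CPM (459 to 1161) in the late range and 334 (187 to 550) in the early range, again with overlap. The summed monocyte list moved with the late range, at 5111 CPM (4288 to 6045) against 1394 in the equal and 1423 in the early range, and its part in the grouping was not tested. Car2 stood at 736 CPM in the equal range, which holds the member with 12 UMIs, and at 188 and 156 in the late and early ranges.

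**Figure D4:**
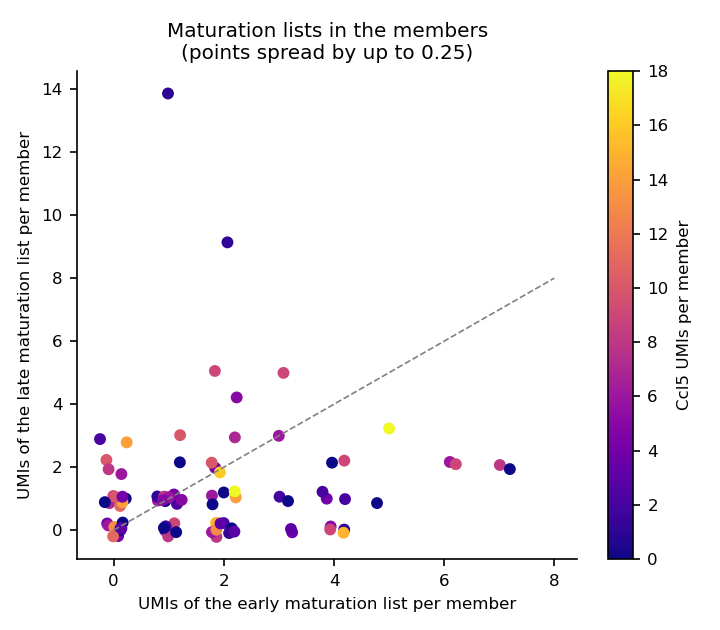
UMIs of the late maturation list against UMIs of the early list in each of the 83 members, coloured by Ccl5 UMIs, with the diagonal dashed. Of the members 40 lie below the diagonal, 22 on it and 21 above it, and the highest late count, 14, belongs to a member with 1 early UMI.

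Cell cycle genes were detected in part of the members. At 600 UMIs, 34.1% of members (24.0 to 45.4) held a UMI of the 15 genes of G2 and M phase, against 45.2% of the other barcodes, 18.8% of the plasmacytoid set and 64.1% of the B lineage set. For the 12 S phase genes the share was 46.3% (35.2 to 57.7), against 38.0% of the others, 25.5% of plasmacytoid and 56.4% of B lineage barcodes. Unthinned, the G2 and M share was 41.0% in members and 57.8% in the others. Of these lists, 0 of 15 and 0 of 12 genes were higher or lower by the stricter call. Ribosomal protein genes made up 27.6% of member UMIs, against 20.2% in the others and 7.5% in S100-rich barcodes.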

How the data were processed

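The data are single-cell RNA counts of 2 mouse marrow libraries made with the 10x Genomics v2 chemistry, each from 1 pool of 3 mice. The deposited values are raw UMI counts per gene and barcode. Per the submitters' processing notes, Cell Ranger 2.1 and Seurat 2 were used with mm10; further settings are not given in the sources used here; cell types were not taken from any file. Groups came from the sample labels.

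Of 6458 marrow barcodes, 19 (0.294%) were dropped for a mitochondrial share of 10% or higher. Members were chosen by UMI counts of these barcodes, and the members and gene lists were chosen with earlier results of these data known. UMIs were summed over barcodes and divided by their total, with exact 95% Poisson intervals for CPM, exact binomial (Clopper-Pearson) intervals for shares and an exact conditional binomial interval for ratios. PCR copies are removed by UMIs, and all intervals and floors cover counting error only. A count of 0 was set against 3 counts. A gene counted as measured from 20 UMIs upwards, members and others together. Barcodes were thinned to 600 UMIs (alternative 1000). Doublets were called with Scrublet in scanpy 1.11.5 and kept in the main values. Of 8 barcodes that met more than 1 class, none was put in a class.

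Named genes were Car1, Car2, the markers, the list genes, and the 30 highest ratios (at least 50 member UMIs) and 15 lowest (mean of at least 50 CPM), leaving out mitochondrial, ribosomal protein, globin and immunoglobulin genes; a few of them are not reported here. Positions come from GENCODE M21 (27722 of 27998 gene identifiers found), promoters from RefSeq. Scaling factors were taken from edgeR 4.0.16 and DESeq2 1.42.0; no p-value was computed. The ratio script was tested on simulated counts. Of 99 genes made 4-fold higher there, 95 were called higher by the stricter call, and of 101 made 4-fold lower, 42 were called lower. Among unchanged measured genes, 1689 were called 2-fold and 125 by the stricter call. Counts of 2-fold calls thus hold much counting error, and the stricter call misses more lower genes than higher ones. Alternatives were the scaling, the minimum count, the members' rule, the comparison barcodes, doublets, equal weights and thinning; those without deep members, without the member with the most Car2 and with the interval in the call were chosen after seeing the data.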

Additional observations from a re-analysis of the deposited data

How the results depend on the processing

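No paired analysis was possible because each group is 1 library and no test was made. The number of members moved to 46 with a minimum of 5 UMIs and to 52 without Gzma in the rule, and lay between 65 and 109 under the other rules tried. With every barcode weighted equally, 1287 genes were 2-fold lower in place of 820; with the interval required to leave out 0, 478 were higher and 197 lower. The level of Car2 in members, 318 CPM, was 192 without the 2 members with 3 or more erythroid UMIs, 175 without members with 3 or more UMIs of any comparison class, 207 without the member with the most Car2, 184 without members over 3000 UMIs and 214.5 with equal weights, where its ratio to the others rose to 1.07 (log2); the cause was not tested. Against other barcodes under 15% S100a8 and S100a9, 3 neutrophil genes changed sign, Cd177 to 0.70, Lcn2 to 0.18 and Ltf to 0.39, since that comparison leaves out the barcodes rich in neutrophil transcripts. Of 812 values recomputed for 116 genes under 7 alternatives, 770 stayed inside the main interval, 38 left it with the same sign and 4 with the opposite sign, the 3 named and Car2 (0.78 to -0.01 without members over 3000 UMIs). At 97414 UMIs in all members, a gene at 0 may still reach 30.8 CPM, which limits every statement on granzymes other than Gzma, perforin and innate lymphoid genes.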

Other observations

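Barcodes outside the members also held Ccl5. Under the same S100 limit, 22 barcodes had 3 or more Ccl5 UMIs and no UMI of the 6 rule genes, with a median of 784 UMIs. They shared several genes with the members: Nkg7 stood at 1715 CPM, AW112010 at 1507, Klrd1 at 728 and Ms4a4b at 728. Their T cell receptor complex genes differed from the members', since Cd3d had 12 UMIs in 7 barcodes (624 CPM) and Cd3g 9 in 6, against 61.6 and 41.1 CPM in the members, while Cd3e had 1 UMI. Il2rb had 2 UMIs in 2 of the 22 barcodes (104 CPM of 19244 UMIs in all), too few to tell its level from that of the members. These barcodes were selected on Ccl5, so its level in them, 7431 CPM, is no result.

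In the Car1-GFP library, the 11 UMIs of the rule genes, of 43564188 UMIs in all, were 7 of Txk and 4 of Klrk1, with at most 2 in a barcode, and Ccl5 had 8 UMIs.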
